A study of Mus musculus with 6 samples.

Results

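The transcripts encoded by mitochondrial DNA were followed in mouse bone marrow-derived basophils (BMBAs) after stimulation with IL-3. The members are all rows of the raw count table whose gene symbol starts with mt-, which gave 37 of 37043 symbols: 13 mRNAs, 2 rRNAs and 22 tRNAs. Marrow from wild-type C57BL/6J mice had been kept for 7 days in culture at a cytokine dose of 0.3 ng/mL, a cytokine that the methods of the study give as IL-3, and basophils were enriched on beads against CD49b. The enriched cells then received either PBS or IL-3 at 10 ng/mL for 6 h, with 3 libraries per group, which the study describes as cultures. Both groups therefore shared the strain, the genotype and the earlier IL-3 culture. The sources used here do not give the age of the mice. The labels do not say that the cultures came from separate mice, so the p-values may measure only technical spread, that is, the spread between these libraries.

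Mitochondria carry a small circular genome that is read from both strands into long precursors. Most mRNAs and rRNAs in these precursors are separated by tRNAs, and excision of the tRNAs releases the RNAs on either side. The mRNAs encode subunits of the respiratory chain complexes I, III and IV and of the ATP synthase (complex V), while the rRNAs and tRNAs serve the mitochondrial ribosome. The nuclear genome encodes every other protein of these complexes, the RNA polymerase Polrmt and the enzymes that process, polyadenylate and degrade mitochondrial RNA. Basophils are rare granulocytes, and IL-3 is a principal growth factor for them.

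The gene order matters here because neighbouring transcripts share precursors and, in places, bases. In the GENCODE M21 annotation of GRCm38, 28 of the 37 genes lie on the plus strand of chromosome M and 9 on the minus strand. mt-Rnr1, mt-Tv, mt-Rnr2, mt-Tl1 and mt-Nd1 follow each other with no gap. The first line runs over chrM:995-1123, plus strand, with the tRNA between both rRNAs in capitals, and the second over chrM:2646-2780, plus strand, with the tRNA between the large rRNA and the first mRNA in capitals.
mt-Rnr1/mt-Tv/mt-Rnr2: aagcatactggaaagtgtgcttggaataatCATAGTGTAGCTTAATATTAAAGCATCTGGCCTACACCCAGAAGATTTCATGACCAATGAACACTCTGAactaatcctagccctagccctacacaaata
mt-Rnr2/mt-Tl1/mt-Nd1: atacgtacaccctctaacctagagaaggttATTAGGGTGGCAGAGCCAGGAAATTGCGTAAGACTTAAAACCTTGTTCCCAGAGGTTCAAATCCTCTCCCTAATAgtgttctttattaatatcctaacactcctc

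Among the mRNAs, mt-Atp8 and mt-Atp6 overlap by 43 bases, mt-Nd4l and mt-Nd4 by 7 bases, and mt-Nd5 and the minus-strand gene mt-Nd6 by 14 bases. The overlaps are shown in capitals, on the plus strand, over chrM:7906-7987, chrM:10147-10193 and chrM:13532-13585. Reads from these bases can belong to either gene, and the sources used here do not say how they were assigned.
mt-Atp8/mt-Atp6: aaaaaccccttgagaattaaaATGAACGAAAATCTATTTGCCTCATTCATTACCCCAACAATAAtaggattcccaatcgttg
mt-Nd4l/mt-Nd4: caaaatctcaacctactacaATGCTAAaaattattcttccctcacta
mt-Nd5/mt-Nd6: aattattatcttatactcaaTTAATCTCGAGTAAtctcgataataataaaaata

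Polyadenylation also bears on these data, since the libraries were primed from oligo-dT beads. Of the 13 mRNAs, mt-Co3, mt-Nd4 and mt-Cytb end in the gene with only the T of a stop codon, which the added A residues complete. Their last 24 bases are given with that T in capitals, at chrM:9367-9390, chrM:11521-11544 and chrM:15265-15288, followed by the last 26 bases of mt-Nd3 at chrM:9781-9806 with its complete stop codon in capitals.
mt-Co3: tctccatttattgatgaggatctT
mt-Nd4: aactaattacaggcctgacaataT
mt-Cytb: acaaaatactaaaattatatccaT
mt-Nd3: aaaaaggattagaatgaacagagTAA

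Mitochondrial rRNAs carry short A tails at most, and an oligo-dT primer can also anneal to A runs inside a transcript. The longest run in mt-Rnr1 has 5 A and that in mt-Rnr2 has 7 A, each shown in capitals over chrM:685-729 and chrM:1468-1514. Which of these primed the reads was not tested.
mt-Rnr1: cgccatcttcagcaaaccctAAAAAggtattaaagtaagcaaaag
mt-Rnr2: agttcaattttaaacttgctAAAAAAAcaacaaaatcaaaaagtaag

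Library totals ranged from 10537540 to 13999287 counts. Mitochondrial counts numbered 415022, 387834 and 375050 in the PBS libraries and 211577, 262959 and 281299 in the IL-3 libraries. As a share of all counts they made up 3.54%, 3.58% and 3.53% with PBS and 2.01%, 2.07% and 2.01% with IL-3. All 3 IL-3 libraries thus lay below all 3 PBS libraries. The mean share was 3.55% ± 0.0261 (SD, n = 3) with PBS and 2.03% ± 0.0367 (SD, n = 3) with IL-3, which is 57.2% of the PBS value. These sums are given as a description, with no test.

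**Figure D1:**
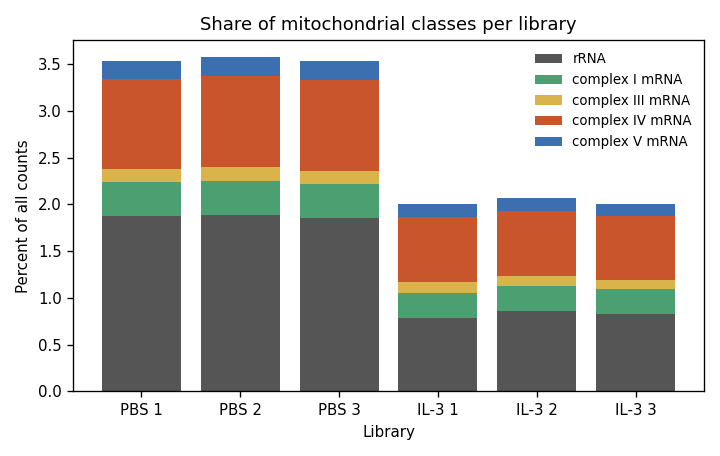
Percent of all counts taken by the mitochondrial rRNAs and by the mRNAs of each respiratory complex, stacked for each of the 6 libraries; tRNAs, with at most 0.00147%, are not drawn. The rRNAs fell from a mean of 1.87% to 0.824% and form the largest part of the difference between the groups.

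The classes did not move by the same amount. The rRNAs took 1.88%, 1.88% and 1.85% of all counts with PBS and 0.781%, 0.862% and 0.828% with IL-3. The 13 mRNAs together took 1.65%, 1.69% and 1.68% with PBS and 1.23%, 1.21% and 1.18% with IL-3. In both classes the groups did not overlap, and the IL-3 mean was 44.02% of the PBS mean for the rRNAs and 71.9% for the mRNAs. Within the mitochondrial counts, the rRNAs therefore held 52.7% ± 0.405 with PBS and 40.6% ± 1.45 with IL-3, while the mRNAs held 47.2% ± 0.405 and 59.4% ± 1.46 (SD, n = 3 each).

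Counts were then scaled to a common library size by TMM, given as CPM (the library's counts rescaled to a fixed total), and compared with the edgeR quasi-likelihood F test over all 16675 genes that passed the filter on low counts. These levels are relative to the other RNA of a library, and RNA amounts per cell were not measured. Words such as lower or fall refer to these relative levels throughout. Called means an adjusted p below 0.05 over all of these genes. Among the 37 members, 19 passed the filter: the 13 mRNAs, both rRNAs and 4 tRNAs. Of these 19, edgeR called 14 lower with IL-3 and 0 higher, against 20.2% called lower, 18.0% called higher and 38.2% called in either direction over all genes tested. At an unadjusted p below 0.05 the counts were also 14 lower and 0 higher, and the DESeq2 Wald test and limma-voom each gave 14 lower and 0 higher. The 14 were both rRNAs and 12 of the 13 mRNAs, mt-Nd3 being the exception. In each of these 14, all 3 IL-3 libraries lay below all 3 PBS libraries, which held for 24.4% of all genes tested, while 48.2% of them did not overlap in one direction or the other. The median log2 fold change of the 13 mRNAs was -0.30, beside -0.0033 over all genes tested. Summed in CPM after TMM, the IL-3 mean was 49.3% of the PBS mean for the rRNAs, 80.4% for the mRNAs and 64.0% for all 37 genes. These percentages are higher than those of the shares of all counts above, which carry no TMM scaling.

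**Figure D2:**
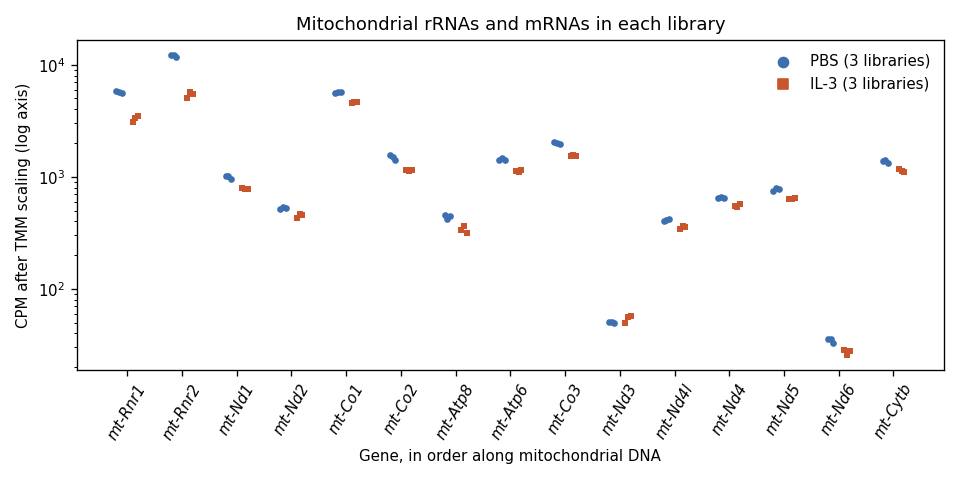
CPM after TMM scaling, on a log axis, of the 2 mitochondrial rRNAs and 13 mRNAs in each library, with PBS as circles and IL-3 as squares, in gene order along the mitochondrial DNA. The IL-3 points lie below the PBS points for every gene shown but mt-Nd3, where the groups overlap.

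The largest falls were those of the rRNAs. mt-Rnr2 (chrM:1094-2675), the RNA of the large ribosomal subunit, stood at 12112, 12180 and 11707 CPM with PBS and at 5000, 5766 and 5460 CPM with IL-3. The groups were far apart, with the highest IL-3 library under the lowest PBS library. Its mean level was 12000 ± 256 CPM with PBS and 5409 ± 385 CPM with IL-3 (SD, n = 3 each). The log2 fold change was -1.15 (SE 0.0448, edgeR adjusted p = 8.31e-12), so that 45.1% of the PBS level was measured. Ordered from the lowest log2 fold change upward, it ranked 653 among the 16675 genes tested.

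mt-Rnr1 (chrM:70-1024), the RNA of the small ribosomal subunit, measured 5885, 5657 and 5546 CPM with PBS and 3103, 3319 and 3498 CPM with IL-3. Again no IL-3 library reached the PBS libraries. The log2 fold change was -0.78 (SE 0.0445, edgeR adjusted p = 8.63e-10), or 58.1% of the PBS level. Per length, mt-Rnr2 was the higher of the pair with PBS, at 7585 ± 162 against 5965 ± 181 CPM per kb. With IL-3 the levels per length were 3419 ± 243 and 3463 ± 207 CPM per kb (SD, n = 3 each), a gap smaller than the SD of either.

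Complex IV, cytochrome c oxidase, has 3 mitochondrial mRNAs. mt-Co1 (chrM:5328-6872), its catalytic subunit, gave 5563, 5711 and 5674 CPM with PBS and 4564, 4616 and 4625 CPM with IL-3. mt-Co2 (chrM:7013-7696), the subunit that receives electrons from cytochrome c, gave 1549, 1512 and 1421 CPM with PBS and 1152, 1127 and 1153 CPM with IL-3. mt-Co3 (chrM:8607-9390) gave 2035, 2020 and 1980 CPM with PBS and 1533, 1551 and 1532 CPM with IL-3. In all 3 genes the IL-3 libraries were close together and under every PBS library. The log2 fold changes were -0.30 for mt-Co1 (SE 0.0337, edgeR adjusted p = 3.6e-06), -0.38 for mt-Co2 (SE 0.0443, 4.02e-06) and -0.39 for mt-Co3 (SE 0.0388, 8.84e-07). They correspond to 81.5%, 76.6% and 76.5% of the PBS level.

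Both mitochondrial mRNAs of complex V, the ATP synthase, were lower as well. mt-Atp6 (chrM:7927-8607), part of the proton channel, measured 1413, 1459 and 1399 CPM with PBS and 1129, 1114 and 1155 CPM with IL-3. mt-Atp8 (chrM:7766-7969), a short subunit encoded on the same bicistronic mRNA, measured 459, 423 and 448 CPM with PBS and 336, 363 and 314 CPM with IL-3. The groups did not overlap in either gene, although relative to its level the spread of mt-Atp8 was wider. The log2 fold change was -0.33 for mt-Atp6 (SE 0.0416, edgeR adjusted p = 1.08e-05) and -0.39 for mt-Atp8 (SE 0.0583, edgeR adjusted p = 5.63e-05). Complex III has a single mitochondrial gene, mt-Cytb (chrM:14145-15288), which encodes cytochrome b. Its values were 1388, 1409 and 1327 CPM with PBS and 1171, 1121 and 1114 CPM with IL-3, all lower with IL-3, with a log2 fold change of -0.28 (SE 0.0436, edgeR adjusted p = 0.000106).

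Complex I, the NADH dehydrogenase, takes 7 of the 13 mRNAs, and 6 of these 7 were called lower. mt-Nd1 (chrM:2751-3707), which follows mt-Rnr2 and mt-Tl1 on the precursor, showed 1015, 1017 and 964 CPM with PBS and 798, 771 and 776 CPM with IL-3. mt-Nd2 (chrM:3914-4951) showed 519, 540.4 and 529 CPM with PBS and 426, 461 and 452 CPM with IL-3. mt-Nd4 (chrM:10167-11544) showed 649.9, 655 and 647 CPM with PBS and 552, 533 and 575 CPM with IL-3. For all 3 genes, every IL-3 library was below every PBS library. The log2 fold changes of mt-Nd1, mt-Nd2 and mt-Nd4 were -0.35 (SE 0.0444, edgeR adjusted p = 1.02e-05), -0.25 (SE 0.0489, edgeR adjusted p = 0.000848) and -0.23 (SE 0.0468, edgeR adjusted p = 0.00091). Differences between these fold changes were not tested gene against gene.

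mt-Nd4l (chrM:9877-10173), which shares its mRNA with mt-Nd4, had 403, 414 and 416 CPM with PBS and 341, 359.97 and 354 CPM with IL-3. mt-Nd5 (chrM:11742-13565) had 753, 801 and 783 CPM with PBS and 629.98, 634 and 646 CPM with IL-3. Neither gene overlapped between groups. The log2 fold changes were -0.22 for mt-Nd4l (SE 0.0484, edgeR adjusted p = 0.00163) and -0.29 for mt-Nd5 (SE 0.0452, edgeR adjusted p = 9.07e-05). mt-Nd6 (chrM:13552-14070) is the sole mRNA read from the minus strand, and it was the lowest mRNA per length in both groups. It reached 36.0, 35.6 and 32.8 CPM with PBS and 28.3, 25.7 and 27.7 CPM with IL-3. Each IL-3 value was again below each PBS value, with a log2 fold change of -0.35 (SE 0.0886, edgeR adjusted p = 0.00498) from 288 to 441 counts per library.

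mt-Nd3 (chrM:9459-9806), a small membrane subunit of complex I, did not follow the other mRNAs. It stood at 50.7, 51.0 and 49.3 CPM with PBS and at 49.4, 56.4 and 57.2 CPM with IL-3. The first IL-3 library lay within the PBS range and the other two above it. The log2 fold change was 0.11 with a 95% interval of -0.036 to 0.262 (SE 0.076, edgeR adjusted p = 0.27), which reaches neither a fall as large as that of the other 12 mRNAs nor a rise past the threshold. Its direction rested on the scaling: with library totals in place of TMM the log2 fold change was -0.05.

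**Figure D3:**
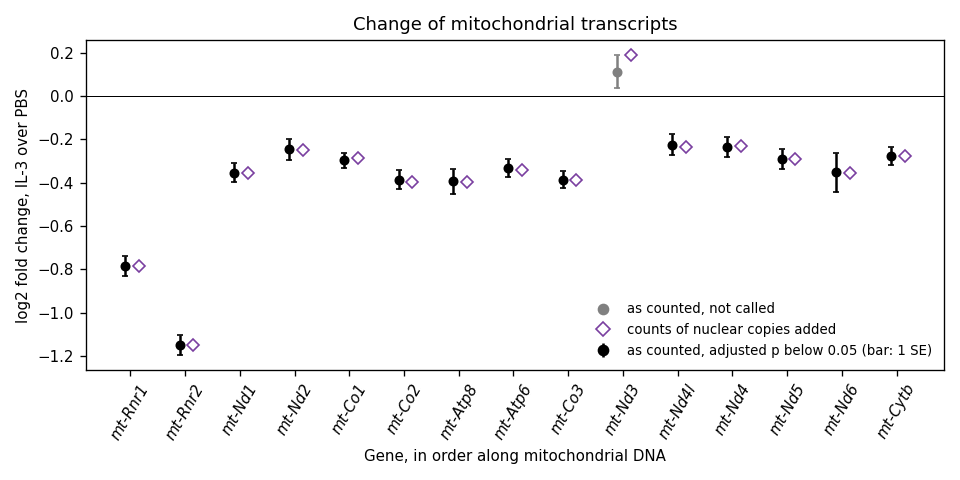
log2 fold change of IL-3 over PBS for the 2 rRNAs and 13 mRNAs in gene order, with circles for the counts as deposited (bars are 1 SE; black where called, grey where not) and diamonds for counts with those of nuclear copies added. The 2 rRNAs lie at -0.78 and -1.15, 12 mRNAs between -0.39 and -0.22, and mt-Nd3 above 0 under TMM scaling (-0.05 with library totals).

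The tRNAs were close to the limit of detection. All 22 tRNA genes had counts in at least 1 library, but together they held 164, 138 and 156 counts with PBS and 102, 149 and 145 counts with IL-3, and 15 of the 22 had no count in at least 1 library. No count in a library still allows up to 3 counts, or 0.214 to 0.285 CPM of the library total, for counting error alone. mt-Ts1 had 46, 34 and 40 counts with PBS and 28, 41 and 35 with IL-3. mt-Tw had 29, 33 and 42 counts with PBS and 31, 44 and 27 with IL-3. mt-Tl1 had 32, 18 and 16 counts with PBS and 10, 16 and 28 with IL-3, and mt-Tr had 11, 4 and 10 with PBS and 7, 15 and 9 with IL-3. Groups overlapped in each of these 4 genes, and edgeR called none of them, with adjusted p from 0.526 to 0.952. The 18 tRNAs under the filter never exceeded 15 counts in a library, and summed over the group they held 143 counts with PBS and 105 with IL-3. As a share of all counts, the 22 tRNAs together took 0.00138% ± 9.89e-05 with PBS and 0.00106% ± 0.000105 with IL-3 (SD, n = 3 each), below the PBS libraries in all 3 IL-3 libraries, but after TMM scaling the groups overlapped. The 95% interval of the log2 fold change included 0 as well as -0.30, the median of the mRNAs, for each of the 4 tested tRNAs.

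The unequal fall of rRNAs and mRNAs was examined inside each library, where scaling between libraries plays no part. This comparison and the 8 ratios it uses were chosen after the values had been seen. mt-Rnr2 per mt-Nd1 count, the ratio of neighbours across mt-Tl1, was 11.93, 11.97 and 12.15 with PBS and 6.26, 7.48 and 7.04 with IL-3. mt-Rnr2 per mt-Co1 count was 2.18, 2.13 and 2.06 with PBS and 1.10, 1.25 and 1.18 with IL-3. mt-Rnr1 per mt-Co1 count was 1.06, 0.990 and 0.978 with PBS and 0.680, 0.719 and 0.756 with IL-3. mt-Rnr2 thus lost ground against both mRNAs, and mt-Rnr1 against mt-Co1, in every IL-3 library.

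The rRNAs also parted from each other. mt-Rnr2 per mt-Rnr1 count was 2.06, 2.15 and 2.11 with PBS and 1.61, 1.74 and 1.56 with IL-3, with no overlap. mt-Nd3 per mt-Co3 count was 0.0249, 0.0252 and 0.0249 with PBS and 0.0322, 0.0364 and 0.0373 with IL-3, higher in all 3 IL-3 libraries. For these 5 ratios the exact two-sided permutation test gave p = 0.1, the smallest value that 3 against 3 libraries allow, and p = 0.16 after Benjamini-Hochberg adjustment over the 8 ratios. The other 3 ratios pair genes that overlap in sequence: mt-Atp8 per mt-Atp6, mt-Nd4l per mt-Nd4 and mt-Nd6 per mt-Nd5. Their group means were 0.312 and 0.298, 0.632 and 0.636, and 0.0447 and 0.0428, with overlapping groups and exact permutation p = 0.7, 1 and 0.5.

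With the summed counts of the 13 mitochondrial mRNAs as the library size, edgeR called 3 of the 19 members, in a fit in which 42.9% of all genes were called higher and 9.69% lower. mt-Rnr2 fell by 0.83 (SE 0.0445, edgeR adjusted p = 2.25e-10) and mt-Rnr1 fell by 0.47 (SE 0.0446, edgeR adjusted p = 2.7e-07) on the log2 scale relative to the mRNAs. mt-Nd3 rose by 0.43 (SE 0.0765, edgeR adjusted p = 0.000201) relative to them. The other 12 mRNAs lay between -0.08 and 0.09 and were not called. Their own counts make up this library size, so their small changes were partly set by construction. Like the ratios, this fit was not among the planned comparisons. Leaving out each library in turn kept the 3 calls, with mt-Rnr2 between -0.88 and -0.78, mt-Rnr1 between -0.51 and -0.43 and mt-Nd3 between 0.39 and 0.49.

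Part of the mitochondrial sequence also exists as copies in nuclear chromosomes, and these copies have rows of their own in the table. Among symbols in the table, 14 share runs of 50 bases with a mitochondrial gene on the same strand, and 7 of them lie side by side on chromosome 1, from base 24611535 to base 24616197 on the minus strand. Gm28437 holds 99.9% of the 50-base runs of mt-Co3, Gm10925 99.5% of those of mt-Atp6, Gm28661 99.5% of those of mt-Co2, Gm10222 98.8% of those of mt-Nd4l and Gm28438 98% of those of mt-Nd3. By contrast, mt-Rnr1, mt-Nd1, mt-Atp8, mt-Nd6, mt-Cytb and all 22 tRNAs share no such run with these rows, and mt-Rnr2 shares 1.04%. The copies of mt-Co3, mt-Atp6, mt-Co2, mt-Nd4l and mt-Nd4 on chromosome 1 are identical to the mitochondrial gene over their whole length. Gm28438 differs from mt-Nd3 by 1 base in 345, T3C, counted from 1 at the first base of mt-Nd3. The first 60 bases of each are shown with that position in capitals, at chrM:9459-9518 on the plus strand and chr1:24613060-24613119 on the minus strand.
mt-Nd3: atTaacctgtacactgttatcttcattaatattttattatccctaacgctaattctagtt
Gm28438: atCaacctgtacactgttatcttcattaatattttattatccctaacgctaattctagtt

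Some of the copies held nearly as many counts as the genes. For mt-Co2, mt-Atp6, mt-Co3 and mt-Nd3, the chromosome 1 copy had between 0.833 and 1.07 counts per mitochondrial count in the 6 libraries. The copy Gm28437, for instance, had 24654, 23056 and 22952 counts with PBS beside 24957, 23107 and 22544 for mt-Co3. Gm10222 had 0.580 to 0.644 counts per mt-Nd4l count, and Gm28439 had 0.540 to 0.579 per mt-Nd4 count, of which it shares 62.2% of the 50-base runs. Gm13341 had 0.21 to 0.229 counts per mt-Co2 count, Gm13340 and Gm29216 had 0.132 to 0.147 per mt-Co1 count, and the other 5 copies had at most 0.0121 counts per count of their gene. The sources used here do not say how reads that match both places were assigned, so the counts of the gene and of its copy cannot be told apart for these members. All 14 copies together took 0.80% ± 0.00699 of counts with PBS and 0.565% ± 0.005 with IL-3 (SD, n = 3 each).

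**Figure D4:**
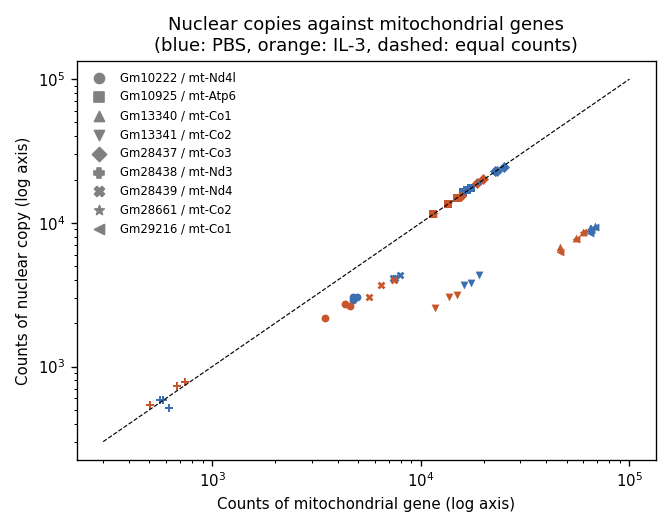
Counts of 9 nuclear copies against counts of the mitochondrial gene whose sequence they share, on log axes, 1 point per library, with PBS in blue and IL-3 in orange and equal counts on the dashed line. The copies of mt-Co2 (Gm28661), mt-Atp6, mt-Co3 and mt-Nd3 on chromosome 1 lie on or near the line, while the partial copies of mt-Co1, mt-Co2 (Gm13341) and mt-Nd4 and the copy of mt-Nd4l lie under it.

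Of the 13 copies that passed the filter, edgeR called 9 lower and 1 higher. The 1 higher was Gm28438, the copy of mt-Nd3, with a log2 fold change of 0.26 (SE 0.0878, edgeR adjusted p = 0.0264). It had 518, 585 and 583 counts with PBS and 536, 726 and 778 with IL-3. How far this call depends on the scaling or on single libraries was not examined. When the counts of each copy were added to its mitochondrial gene, edgeR called 14 members lower, against 20.2% of all genes, and mt-Nd3 became the 1 member called higher, against 18.0%. mt-Nd3 then stood at 93.0, 102.1 and 100.5 CPM with PBS and at 102.1, 117 and 117 CPM with IL-3, so that the lowest IL-3 library (102.15 CPM) was barely above the highest PBS library (102.09 CPM). The log2 fold change was 0.19 (SE 0.0676, edgeR adjusted p = 0.0387). That call was lost when PBS replicate 1 (edgeR adjusted p = 0.153), PBS replicate 2 (0.0502), PBS replicate 3 (0.0572), IL-3 replicate 2 (0.154) or IL-3 replicate 3 (0.136) was left out, and with library totals in place of TMM (log2 fold change 0.02, edgeR adjusted p = 0.813). Relative to the mitochondrial mRNAs, with copies added to all of them, mt-Nd3 rose by 0.51 (SE 0.0677, edgeR adjusted p = 1.1e-05) in a fit that called 43.5% of all genes higher and 9.49% lower, and it lay between 0.47 and 0.57 with each library left out.

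The copies also bear on the order of counts per length among the mRNAs. Per length and as counted, the PBS levels ran from mt-Co1 at 3657 ± 49.9 CPM per kb over mt-Co3 at 2566 ± 36.6, mt-Co2 at 2184 ± 96.7, mt-Atp8 at 2173 ± 89.0 and mt-Atp6 at 2090 ± 46.2. Below these came mt-Nd4l at 1384 ± 23.9, mt-Cytb at 1202 ± 37.1, mt-Nd1 at 1044 ± 31.8 and mt-Nd2 at 510.2 ± 10.1 CPM per kb. mt-Nd4 at 472 ± 2.85, mt-Nd5 at 427 ± 13.1, mt-Nd3 at 145 ± 2.64 and mt-Nd6 at 67.0 ± 3.37 CPM per kb were the lowest (SD, n = 3 each). mt-Co2, mt-Atp8 and mt-Atp6 did not differ beyond their spread. mt-Nd4l and mt-Nd4 share an mRNA yet stood at 1384 and 472 CPM per kb, so these values do not measure amounts of transcript. Why they differed was not tested. With the copies added, mt-Co3 was the highest mRNA at 5135 ± 33.4 CPM per kb, above mt-Co2 at 4885 ± 222, mt-Co1 at 4668 ± 62.6 and mt-Atp6 at 4221 ± 94.6. mt-Atp8, which has no copy of this kind, was then at about the level of mt-Nd4l with PBS, 2174 ± 89.1 against 2246 ± 57.2 CPM per kb, and below it with IL-3, 1654 ± 120 against 1907 ± 56.6 CPM per kb. As counted, the IL-3 levels ran from mt-Co1 at 2978 ± 21.4 CPM per kb over mt-Co3 at 1963 ± 13.2 to mt-Co2, mt-Atp6 and mt-Atp8 at 1673 ± 21.3, 1663 ± 30.1 and 1654 ± 120, which did not differ beyond their spread, and mt-Nd3 at 156 ± 12.3 and mt-Nd6 at 52.5 ± 2.61 were again the lowest.

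The nuclear genes that act on mitochondrial DNA and RNA were followed as the other side of the same system. Of 13 genes of mitochondrial transcription, edgeR called 0 in either direction, beside 38.2% of all genes tested, with 1 lower at an unadjusted p below 0.05 and 0 called by the DESeq2 Wald test or by limma-voom. Polrmt, the polymerase, had 9.87, 9.003 and 10.6 CPM with PBS and 11.0, 9.22 and 8.51 with IL-3, a log2 fold change of -0.04 (edgeR adjusted p = 0.851). Tfam, which packages mitochondrial DNA and starts its transcription, had 18.1, 20.5 and 21.3 CPM with PBS and 18.9, 16.6 and 15.8 with IL-3 (log2 fold change -0.23, edgeR adjusted p = 0.148). Tfb2m, the initiation factor, had 21.04, 19.2 and 14.6 CPM with PBS and 14.8, 14.3 and 14.6 with IL-3 (log2 fold change -0.33, edgeR adjusted p = 0.0696). Groups overlapped in all 3 genes. Tfam and Tfb2m were called lower with library totals in place of TMM (log2 fold changes -0.39 and -0.49, edgeR adjusted p = 0.0199 and 0.00824), as was Tfb2m without PBS replicate 3 (-0.47, edgeR adjusted p = 0.00864).

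Among 31 genes of mitochondrial RNA processing and stability, 6 were called higher and 1 lower, near the shares of all genes tested (18.0% and 20.2%) for the higher calls and under them for the lower, with a median log2 fold change of -0.03. The higher ones included Angel2 at 0.29, Pde12, which removes A tails from mitochondrial RNA, at 0.48, and Fastkd5, which takes part in mitochondrial RNA processing, at 0.85 (edgeR adjusted p = 0.00554, 0.0135 and 0.0143). The call of Pde12 was lost without PBS replicate 1 (edgeR adjusted p = 0.0671) or IL-3 replicate 1 (0.0686), and that of Fastkd5 without PBS replicate 2 (0.0619). With library totals, 1 gene of this list was called higher and 4 lower, and Angel2 and Pde12 were not called. Lrpprc, which holds mitochondrial mRNAs stable, and Mtpap, the mitochondrial poly(A) polymerase, had log2 fold changes of -0.08 and 0.14 and were not called (edgeR adjusted p = 0.614 and 0.353). Of 19 genes of mitochondrial tRNA modification, 5 were called higher and 0 lower by edgeR, beside 18.0% and 20.2% of all genes tested, with 1 lower at an unadjusted p below 0.05 and 0 lower by the DESeq2 Wald test. With library totals, 4 were higher and 1 lower. Yrdc at 0.81, Alkbh1 at 0.57 and Nsun2 at 0.52 were the 3 with the smallest adjusted p (1.39e-06, 0.00188 and 0.0009 by edgeR).

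For the copying of mitochondrial DNA and its nucleotide supply, 4 of 17 genes were called higher and 1 lower, with a median of -0.20, beside 18.0% higher and 20.2% lower over all genes tested. With library totals, 1 was higher and 9 lower. Slc25a33, a mitochondrial pyrimidine nucleotide carrier, rose by 0.75, and Rrm2b, a ribonucleotide reductase subunit, rose by 0.35, while Fen1, a flap endonuclease, fell by 0.50 on the log2 scale (edgeR adjusted p = 0.00427, 0.0021 and 0.00381). Rrm2b was not called with library totals (0.19, edgeR adjusted p = 0.0825). Polg, the catalytic subunit of the mitochondrial DNA polymerase, had a log2 fold change of 0.15 (edgeR adjusted p = 0.143). Of 10 regulators, 4 were called higher and 2 lower, or 4 and 3 with library totals. Myc rose by 2.67, from 3.34, 3.50 and 3.95 CPM to 23.4, 26.7 and 18.6 CPM, Pprc1, a coactivator, rose by 0.78 and Nrf1, a transcription factor for respiratory genes, rose by 0.50 on the log2 scale (edgeR adjusted p = 3.5e-09, 0.000566 and 0.000337).

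Over the nuclear-encoded subunits of complexes I, III, IV and V, 11 of 75 tested were called higher and 14 lower, shares near those of all genes tested (18.0% higher, 20.2% lower), with a median log2 fold change of 0.02, beside 0 higher and 12 lower of 13 for the mitochondrial subunits. Complex I had 1 higher and 10 lower of 37, or 17 lower with library totals, among them Ndufc2 at -0.53 and Ndufab1 at -0.29, with Ndufa1 the 1 higher at 0.40 (edgeR adjusted p = 0.000479, 0.0045 and 0.00238). In complex III, Uqcrq at -0.43 was the 1 gene called of 9, or 6 lower with library totals (edgeR adjusted p = 0.00016). Of 12 nuclear subunits of complex IV, edgeR called 5 higher and 0 lower, with 1 lower at an unadjusted p below 0.05 and 0 lower by the DESeq2 Wald test, and 7 were not called. Cox6c rose by 0.32, Cox8a by 0.24 and Cox6a1 by 0.16 (edgeR adjusted p = 0.000942, 0.00858 and 0.0418). Cox6a1 was called with IL-3 replicate 1 left out, but with any other library left out its adjusted p was 0.0646 to 0.19. Complex V had 5 higher and 3 lower of 17, with Atp5b, its catalytic beta subunit, at 0.22, Atp5g2, a c-ring gene, at -0.47 and Atpif1, its inhibitor, at -0.68 (edgeR adjusted p = 0.00195, 5.05e-05 and 2.97e-06). With library totals in place of TMM, no nuclear subunit of complexes IV and V was called higher, and 4 of 12 and 7 of 17 were called lower.

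**Figure D5:**
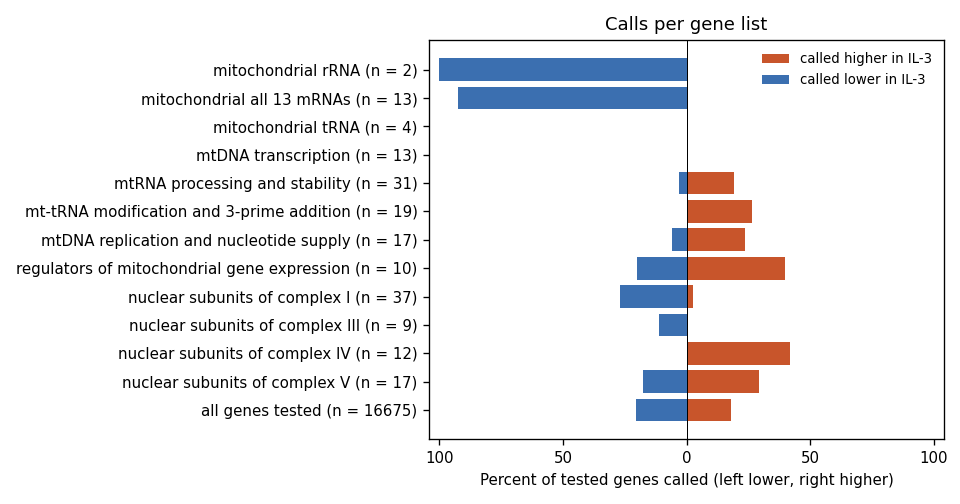
Percent of the tested genes of each list that edgeR called lower (left) or higher (right) with IL-3, for the mitochondrial classes, the lists of nuclear genes and all genes tested, with the number tested in brackets. Both rRNAs and 12 of 13 mitochondrial mRNAs were called lower, and of the nuclear subunits of complex I 10 of 37 were.

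Other RNAs that lack a long A tail, or stay in the nucleus, were compared because the rRNAs share the first property. Rn7sk, a nuclear regulator of transcription elongation, had 286, 271 and 271 CPM with PBS and 70.5, 84.2 and 92.8 CPM with IL-3, all lower with IL-3 (log2 fold change -1.74, edgeR adjusted p = 6.17e-11). The signal recognition particle RNA genes Rn7s1 and Rn7s2, which are near-identical so that their counts are uncertain, were at -1.55 and -1.44, Rn7s6 was at -1.11 and Rpph1, the RNA of ribonuclease P, at -1.58 (edgeR adjusted p = 7.22e-05, 0.000204, 0.0159 and 0.00912). The call of Rn7s6 was lost without IL-3 replicate 1 (edgeR adjusted p = 0.0654) or IL-3 replicate 3 (0.0625), and that of Rpph1 without PBS replicate 2 (0.0816). Neat1, a nuclear long RNA, rose by 0.56 (edgeR adjusted p = 1.13e-06). CT010467.1, annotated as an rRNA, took 15.1%, 14.1% and 13.4% of counts with PBS and 14.4%, 14.8% and 16.5% with IL-3, with a log2 fold change of 0.27 (edgeR adjusted p = 0.00115) that was 0.10 and not called with library totals. In all, 2 of the 9 tested RNAs of this kind were called higher and 5 lower, beside 18.0% and 20.2% of all genes tested. The part of A tails or of internal priming in the fall of mt-Rnr1 and mt-Rnr2 was not tested.

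Markers of cell types also differed between the groups, some lists upward and others downward. Summed over 11 monocyte or macrophage markers, the level was 11856 to 12783 CPM in the PBS libraries and 6191 to 6812 CPM in the IL-3 libraries. Most of this sum was Lyz2, with means of 10423 ± 431 CPM with PBS and 5332 ± 315 CPM with IL-3 (SD, n = 3 each). Of the 11, 8 were called lower and 2 higher, where 20.2% of all genes tested were called lower and 18.0% higher. The 2 higher were Adgre1 and Ly6c2 (log2 fold changes 0.53 and 1.29), and Mrc1 was not called. The 9 basophil markers summed to 10937 to 12186 CPM with PBS and 17259 to 17520 CPM with IL-3, and 7 were called higher and 1 lower. Of these, the basophil protease Mcpt8 measured 2897 to 3236 CPM with PBS and 5736 to 6075 CPM with IL-3 (log2 fold change 0.94, edgeR adjusted p = 6.99e-11). Prss34, another basophil protease, measured 5298 to 5939 CPM and 5512 to 5851 CPM, with overlapping groups (log2 fold change 0.01, edgeR adjusted p = 0.86). With library totals in place of TMM, all 9 basophil markers were called, 7 higher and 2 lower, so that Prss34 was called lower. Of the 11 monocyte or macrophage markers, 2 were then called higher and 9 lower. The mast cell markers summed to 839 to 942 CPM and 1433 to 1567 CPM (4 of 6 tested called higher by edgeR), the neutrophil markers to 122 to 158 and 194 to 256 CPM (3 higher, 1 lower of 7), the eosinophil markers to 154 to 172 and 95.3 to 136 CPM (1 higher, 3 lower of 5) and the erythroid markers to 99.7 to 218 and 54.4 to 100.8 CPM (2 of 4 lower, with Alas2 at 0 in all libraries). In bulk RNA, fewer cells of a type and less RNA per cell cannot be told apart. The part of these shifts in the fall of the mitochondrial transcripts was not tested.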

How the data were processed

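A total of 6 RNA-seq libraries of BMBAs were compared, 3 with PBS and 3 with IL-3. The authors captured RNA on oligo-dT beads, amplified whole-transcriptome cDNA by the TAS-Seq workflow, trimmed reads with Cutadapt 3.4, mapped them with Bowtie2 2.4.2 to reference RNA and deposited raw counts per gene symbol. The methods name GRCm38 (release 101), and the submitters' processing notes name GRCm39. No molecular identifiers are described, so limits cover counting error only. For strand and for reads with several origins, the sources used here give no setting. The labels name column extraction and the methods name direct lysis.

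Counts were filtered with filterByExpr, TMM-scaled and tested with the edgeR 4.0.16 quasi-likelihood F test in R 4.3.3, two-sided, with Benjamini-Hochberg adjustment over all genes. The SE was derived from the F value. The study used TCC 1.32.0, which relies on edgeR. DESeq2 1.42.0 and limma-voom (limma 3.58.1) were alternatives. Coordinates and sequences came from GENCODE M21 on GRCm38, in which 96.2% of symbols were found. All 37 mitochondrial genes matched. Nuclear copies were found by shared runs of 50 bases. The code was tested on simulated data.

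The 13 mRNAs, both rRNAs and the 4 tRNAs that passed the filter are named, and the other 18 tRNAs are given as a group, with mt-Tv, mt-Tp and mt-Te also named. Of each nuclear list, the called genes with the 3 smallest adjusted p and those changed at least 2-fold (log2 of 1) are named, plus Polrmt, Tfam, Tfb2m, Lrpprc, Mtpap and Polg. Rn7s1, Rn7s2, Rpph1 and Rn7s6 met this rule by size. Named outside it after their values were seen were CT010467.1, Malat1, Kcnq1ot1, Mcpt8, Prss34, Lyz2, Adgre1, Ly6c2, Mrc1, Alas2 and the nuclear copies (symbols starting with Gm). Markers of cell types were not named by size. Members and lists were chosen with earlier results of these data known.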

Additional observations from a re-analysis of the deposited data

How the results depend on the processing

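The 14 mitochondrial genes called lower kept their direction and their call in all 15 alternatives: other scalings, filters and tests, the block, each library left out and copies added. The number called higher was 0 in all of these but the addition of nuclear copies, which gave 1. Over members tested singly, 280 alternative values kept their side of the threshold, 6 turned direction, 1 gained a call (mt-Nd3 with copies added) and 6 lost that call again under a further change. Leaving out 1 library turned uncalled genes of low count: log2 fold changes ranged from -0.6762 to 0.0281 for mt-Tl1 (turned without PBS replicate 1), from -0.2276 to 0.1803 for mt-Tw (without PBS or IL-3 replicate 3), from -0.0392 to 0.5134 for mt-Tr (without PBS or IL-3 replicate 2) and from -0.154 to 0.0391 for Polrmt (without PBS or IL-3 replicate 3). With library totals in place of TMM, some values of members and of named nuclear genes other than markers and copies turned. They were -0.0496 for mt-Nd3, -0.0183 for Mtpap, -0.0137 for Polg, -0.0045 for Cox6a1, -0.0525 for Malat1 and -0.0486 for Kcnq1ot1. Markers of cell types and nuclear copies were not followed singly across the alternatives. That scaling moved the median of all genes by -0.16 and the calls over all genes from 3003 higher and 3372 lower to 1699 and 5017, so that 25.3% rather than 47.1% were higher. No cause of the turned values was tested.

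The mitochondrial share of counts was 4.14% with PBS and 2.396% with IL-3 without CT010467.1 in the total, 4.51% and 2.61% over protein-coding and mitochondrial genes, and 4.35% and 2.59% with nuclear copies counted as mitochondrial, an alternative chosen after seeing the data. Leaving out 1 library gave 3.53% to 3.56% with PBS and 2.01% to 2.04% with IL-3. No pairing by replicate number was seen, since deviations of libraries with the same number correlated at -0.00869, -0.0162 and -0.0224. Whether libraries with the same number shared a source is not given, and these correlations cannot tell. With the replicate number as a block, 14 members were called lower and 0 higher, over all genes 3247 were lower and 2842 higher, and Cox6a1 lost its call (edgeR adjusted p = 0.0655). Depth limits the tRNAs and nuclear genes of low count, such as Fastkd5, Rn7s6, Rpph1 and Polrmt, while sequence shared with nuclear copies limits mt-Co1, mt-Co2, mt-Co3, mt-Atp6, mt-Nd3, mt-Nd4l and mt-Nd4.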

Other observations

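Within the mitochondrial mRNA pool, the share of 8 of the 13 members overlapped between groups. mt-Co1 held 35.1%, 35.6% and 36.2% of the mRNA counts with PBS and 35.9%, 36.3% and 36.2% with IL-3, and mt-Cytb held 8.77%, 8.78% and 8.47% and 9.22%, 8.80% and 8.71%, with overlapping groups for both. mt-Nd3 held 0.320%, 0.318% and 0.314% with PBS and 0.389%, 0.443% and 0.448% with IL-3, with no overlap. The groups were also apart, by less, for mt-Co3 (12.9%, 12.6% and 12.6% with PBS, 12.1%, 12.2% and 11.99% with IL-3), mt-Co2, mt-Nd4 and mt-Nd4l. In the edgeR fit relative to the mitochondrial mRNAs, whose sum includes these 4, none of them was called (adjusted p = 0.146, 0.201, 0.165 and 0.141). After TMM scaling, 48.2% of all genes tested did not overlap between groups.

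The minus-strand transcripts, mt-Nd6 and 8 tRNAs, held 510, 468 and 447 counts with PBS and 330, 370 and 409 with IL-3, or 0.00429% ± 7.21e-05 and 0.00299% ± 0.000123 of all counts (SD, n = 3 each). Among tRNAs under the filter, mt-Tp had 6, 4 and 15 counts with PBS and 2, 9 and 0 with IL-3. mt-Te had 11, 5 and 3 counts with PBS and 4, 4 and 5 with IL-3. Groups overlapped in both.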
